A study of Rattus norvegicus and Mus musculus with 22 samples.

Results

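Unstimulated islets were set against unstimulated hepatocytes of the mouse, using 3 of the 22 RNA-seq libraries of a study of cAMP-driven transcription. The islet arm was the 2 control libraries, CON 1 and CON 2, of cultured primary pancreatic islets. The hepatocyte arm was 1 control library, CON 1, of cultured primary hepatocytes. All came from wild-type black6 mice and none carried forskolin, the adenylyl cyclase activator that other libraries of the same tables received. The sources used here do not give the age or sex of the mice, the time in culture or the number of animals behind a library. An islet library is a mixture of endocrine, exocrine, vascular and immune cells, so fewer cells of a type and less RNA per cell cannot be told apart. With 1 hepatocyte library, and with the 2 tissues normalised by the authors in separate tables, no test was made across tissues. Every difference below is a pair of levels with no replicate check on the hepatocyte side.

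Islets are the endocrine micro-organs of the pancreas: beta cells make insulin, alpha cells glucagon, delta cells somatostatin and PP cells pancreatic polypeptide. Hepatocytes secrete most plasma proteins, store glycogen and make glucose during fasting. Both tissues are taught to take up glucose through the transporter GLUT2 (Slc2a2), and both answer hormones through cAMP, protein kinase A and the transcription factor CREB. Both also use the nuclear receptor Hnf4a, which directs many of their genes.

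Levels are given in CPM: the authors' log2 values were turned back to a linear scale and every library was set to a total of 1000000. The file headers give 3.1e+06 reads each for islets CON 1 and CON 2, against 2.3e+06 reads for hepatocytes CON 1, so that 3 reads correspond to 0.978, 0.977 and 1.29 CPM. Smaller values than these are regularised estimates and say only that fewer than 3 reads were seen or expected. Ins1 and Ins2 together took 24.4% and 22.7% of the islet total, and the 45S ribosomal RNA row Rn45s took 13.7% and 14.7%, against 0% and 1.27% in hepatocytes. The median log2 difference over all compared transcripts, islets minus hepatocytes, was -0.76. List medians are differences on this log2 scale, and a list whose median lies between -0.76 and 0 turns positive where the median transcript is set equal; it is named where that happens. The hepatocyte column named CON2 was used as a check only. Pck1, a gene switched on by cAMP, stood at 374 CPM in it, against 73.7 CPM in CON1 and 64.8 CPM in the column named FSK2, and the command in the header lists a forskolin input where that column stands.

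The tissues differed widely. Of 9904 transcripts that reached 10 CPM in either tissue, 1019 (10.3%) were at least 4-fold higher in both islet libraries, and 1902 (19.2%) were at least 4-fold higher in hepatocytes than in both islet libraries. The 4-fold rule was applied to log2(CPM + 1), so it understates the change of low genes, and transcripts that meet it are called higher below. With the median difference set to 0 the split turned round, to 1427 higher in islets and 1025 higher in hepatocytes. This shift raises every difference by the same amount. All 1019 of the first islet calls are thus kept by construction, and only hepatocyte calls can be lost. With the check column CON2 in place of CON1, 1009 of the 1019 and 1626 of the 1902 calls were kept. The median absolute log2 difference was 0.13 between the islet libraries and 0.12 between hepatocyte CON1 and the check column. No compared transcript lay 4-fold apart between the islet libraries, and 2 did so between the hepatocyte columns. The authors' regularised log2 values draw the libraries of a table together, so these spreads are smaller than those of raw counts. Of 1107 transcripts at 100 CPM or more in islets, 58 were listed at 0 in hepatocytes. Of 1990 at 100 CPM or more in hepatocytes, 5 were listed at 0 in islets. A row is listed at 0 only where all 4 columns of its table are 0, forskolin columns included. This held for 7484 islet and 9045 hepatocyte rows, so the 58 and the 5 are not on an equal footing. A transcript listed at 0 in 1 tissue can reach the filter only through the other, which all but fixes its call. Such rows make up 229 of the 1019 islet calls and 16 of the 1902 hepatocyte calls. Counts of called members are no support where such genes fill a list. There was also common ground: 596 transcripts were at 100 CPM or more in both tissues. Of these, 352 lay within 2-fold, or 336 with the median set to 0. The demand for 100 CPM in both tissues itself favours similar levels, so these counts do not describe all transcripts.

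**Figure D1:**
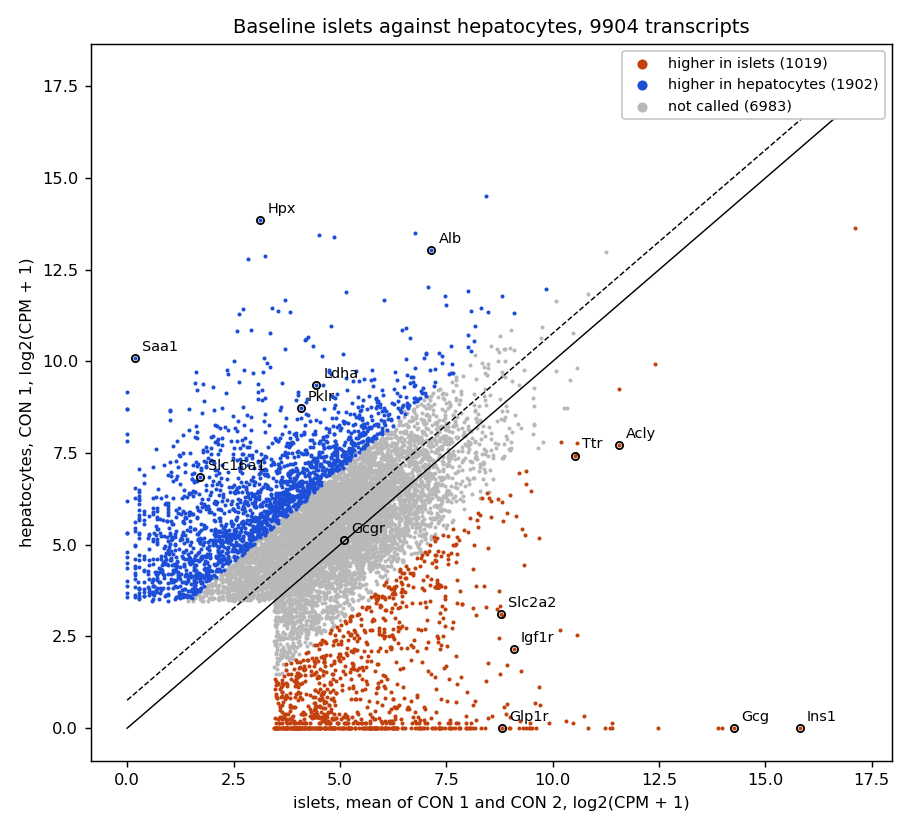
Each point is 1 of 9904 transcripts, with the mean of the 2 islet libraries on the x axis and hepatocytes CON 1 on the y axis, both as log2(CPM + 1). Orange marks the 1019 called higher in islets, blue the 1902 called higher in hepatocytes and grey the rest; the solid line is equality, the dashed line the median difference of -0.76. Ins1 and Gcg lie on the x axis, Saa1 close to the y axis, and Gcgr near equality.

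**Figure D2:**
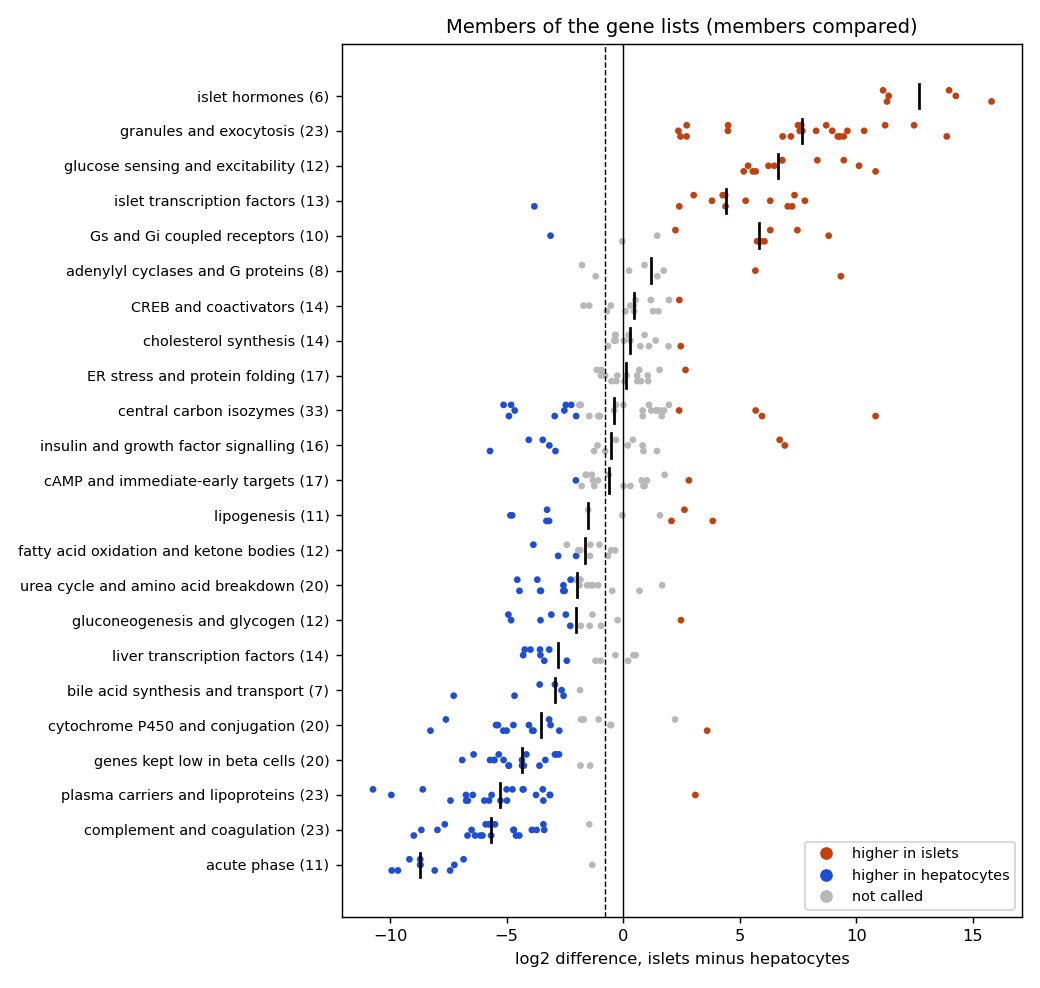
Each point is a gene of the list named at the left, placed by its log2 difference, islets minus hepatocytes; the number of members compared is in brackets and the short black bar is the list's median, the solid line marks 0 and the dashed line -0.76. Orange points are called higher in islets, blue points higher in hepatocytes, grey points neither. Hormone and granule genes lie on the right, plasma protein and acute phase genes on the left, and the CREB, cholesterol and protein folding lists around 0.

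Marker genes gave each library's content. Of the 9 beta cell markers, 8 were listed at 0 in hepatocytes, and their summed level was 265459 and 244701 CPM in islets, against 0.107 CPM in hepatocytes. The 15 hepatocyte markers summed to 471 and 315 CPM in islets, against 18169 CPM in hepatocytes. None of these 15 was listed at 0 in islets, and albumin (Alb) stood at 183 and 99.5 CPM there. The islet table also holds a forskolin library, isletWT_FSK 1, in which the same markers summed to 3117 CPM, and the regularised values of 1 table lean towards each other. Its part in the low liver signal of the control islets was not tested. The 15 acinar markers, digestive enzymes of the exocrine pancreas, summed to 1063 CPM in islets CON 1 and 2326 CPM in islets CON 2, against 6.06 CPM in hepatocytes. Ctrb1, a chymotrypsinogen, was at 466 and 984 CPM in islets and was listed at 0 in hepatocytes. The sum over the 15 markers in CON 2 was 2.19 times that in CON 1. All 13 that reached the filter were called higher in islets. As 11 of the 15 were listed at 0 in hepatocytes, members could reach the filter only through islets, which fixed these calls in advance. Alpha cell markers summed to 20353 and 22349 CPM in islets, against 11651 CPM in hepatocytes. Nearly all of the hepatocyte sum was Gc, the vitamin D binding protein, at 93.5 and 120 CPM in islets and 11471 CPM in hepatocytes, a gene that alpha cells and the liver share.

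Endothelial markers summed to 335 and 365 CPM in islets, against 191 CPM in hepatocytes. Markers of macrophages and Kupffer cells summed to 125 and 113 CPM in islets, against 152 CPM in hepatocytes, of which Cd68, a lysosomal protein, made 110 CPM. Cd68 was called higher in hepatocytes, a call lost in 8 of 16 alternative settings, among them the columns CON2 and FSK2. Of the 6 markers compared, the other 5 leaned towards islets without a call, and the list's median was 1.51. Lymphocyte, Schwann and red blood cell markers summed to less than 10 CPM in every one of the 3 libraries. The duct list split: Krt7, a keratin, was at 523 and 451 CPM in islets and 0.592 CPM in hepatocytes, whereas Spp1, osteopontin, was at 287 and 251 CPM in islets and 2650 CPM in hepatocytes. Sox9, a duct and progenitor factor, was at 3.60 and 3.40 CPM in islets and 52.0 CPM in hepatocytes. Of the 4 Y-linked genes compared, 0 were called; Ddx3y, an RNA helicase, was at 47.8 and 51.0 CPM in islets and 147 CPM in hepatocytes.

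**Figure D3:**
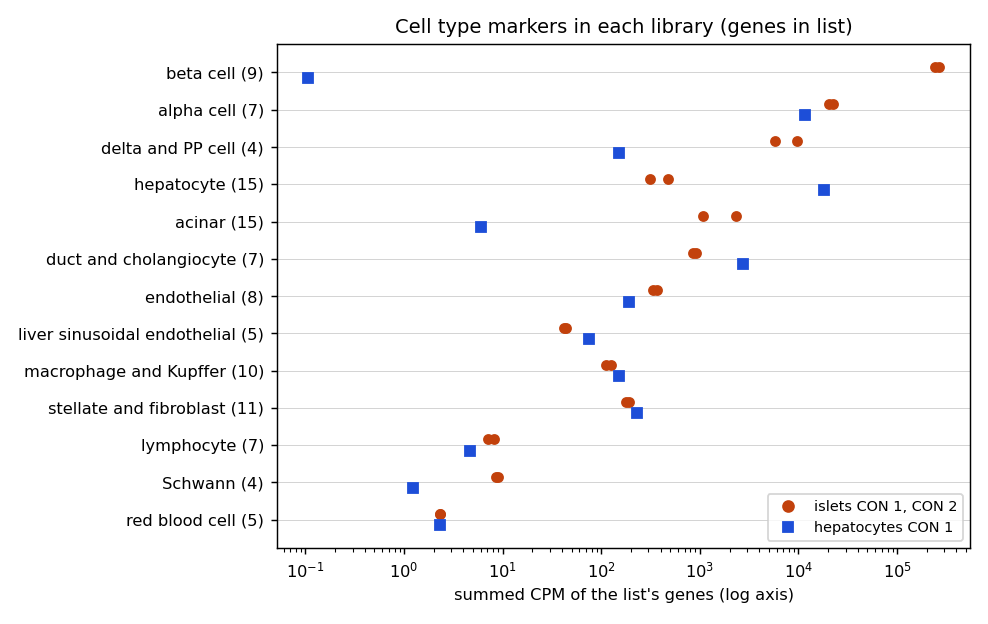
Summed CPM of each marker list on a log axis, for islets CON 1 and CON 2 (orange circles) and hepatocytes CON 1 (blue squares); the number of genes in a list is in brackets. Beta cell and acinar lists stand far to the right in islets, the hepatocyte list in hepatocytes, and the macrophage and stellate lists lie close together.

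Hormones set islets apart most. Ins1 was at 65051 and 49201 CPM, Gcg (glucagon) at 18706 and 20567 CPM and Iapp (amylin, secreted with insulin) at 17711 and 14452 CPM in islets, and all were listed at 0 in hepatocytes. Ins2, whose kept transcript differed between the tables and which was therefore matched by symbol, was at 179437 and 177996 CPM in islets and listed at 0 in hepatocytes. Scaled by transcript length, Ins2 and Ins1 were the most abundant transcripts of both islet libraries. Sst (somatostatin) was at 3265 CPM in islets CON 1 and 1565 CPM in islets CON 2, and Ppy at 3284 and 1951 CPM, so the islet libraries differed more in the minor hormones than in Gcg. All 6 members of the hormone list that were compared were called higher in islets, with a median log2 difference of 12.67 beside -0.76 for all transcripts. The mouse has 2 insulin genes, and reads could be split between them where their sequences match. The first 120 coding bases are shown for that reason, with the 14 bases that differ between the genes in capitals (88.3% identical; mm10, GENCODE M21 transcripts).
Ins1, chr19:52264624-52264743, plus strand: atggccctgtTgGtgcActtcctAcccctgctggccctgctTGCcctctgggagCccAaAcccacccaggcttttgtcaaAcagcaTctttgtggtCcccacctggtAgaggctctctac
Ins2, chr7:142679414-142679533, minus strand: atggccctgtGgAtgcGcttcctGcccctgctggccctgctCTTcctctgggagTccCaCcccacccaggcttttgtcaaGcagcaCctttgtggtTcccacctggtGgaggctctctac

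The machinery that packs and releases these hormones followed. All 23 compared members of the granule and exocytosis list were called higher in islets, with a median log2 difference of 7.68. Chga (chromogranin A, a granule core protein) was at 16404 and 13734 CPM and Pcsk2 (a prohormone convertase) at 6228 and 5201 CPM in islets, and both were listed at 0 in hepatocytes. Scg2 was at 2286 and 3083 CPM in islets, against 0.106 CPM in hepatocytes. Chgb was at 1462 and 1387 CPM in islets, against 0.106 CPM. Both are granins, the same class of granule protein. Some members were less far apart, among them Cpe and Pam. Cpe, carboxypeptidase E, was at 965 and 1383 CPM in islets and 224 CPM in hepatocytes (5.25-fold). Pam, which amidates peptides, was at 612 and 723 CPM in islets and 100 CPM in hepatocytes (6.67-fold). The SNARE protein Snap25 was at 211 and 185 CPM in islets and listed at 0 in hepatocytes, while its partner Vamp2 was at 218 and 250 CPM in islets and 9.38 CPM in hepatocytes (24.9-fold).

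The glucose-sensing and excitability list was called higher in islets for 12 of 12 compared members, with a median log2 difference of 6.64. Abcc8, the sulfonylurea receptor of the ATP-sensitive potassium channel, was at 1280 and 1272 CPM in islets, against 0.153 CPM in hepatocytes. Slc30a8, the granule zinc transporter, was at 657 and 749 CPM and Ucn3, a peptide released with insulin, at 311 and 328 CPM in islets, and both were listed at 0 in hepatocytes. The pore subunit Kcnj11, matched by symbol, was at 88.4 and 91.1 CPM in islets and listed at 0 in hepatocytes. Among the 15 largest islet differences were also Meg3 and Atp2a3. Meg3, an imprinted noncoding RNA, was at 1725 and 1701 CPM in islets and 0.248 CPM in hepatocytes. Atp2a3, a calcium pump of the endoplasmic reticulum, was at 982 and 943 CPM in islets and 0.107 CPM in hepatocytes.

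Islet transcription factors followed the same side with 1 exception. Of 13 compared, 12 were called higher in islets, with a list median of 4.39. Neurod1 was at 203 and 239 CPM, Isl1 at 182 and 144 CPM, Nkx6-1 at 162 and 139 CPM and Pdx1 at 143 and 122 CPM in islets, and all were listed at 0 in hepatocytes. These are the homeobox and helix-loop-helix factors that keep endocrine identity. Pax6, matched by symbol, was at 388 and 406 CPM in islets and 0.106 CPM in hepatocytes. The exception was Hhex, a homeobox factor of delta cells and of liver, at 10.3 and 9.26 CPM in islets and 150 CPM in hepatocytes (15.3-fold higher in hepatocytes).

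Hepatocytes were marked by secreted plasma proteins. Of 23 compared carrier and lipoprotein genes, 22 were called higher in hepatocytes, with a median log2 difference of -5.26. Hpx, hemopexin, which binds heme, was at 8.56 and 6.90 CPM in islets and 14786 CPM in hepatocytes (1913-fold higher in hepatocytes). Cp, ceruloplasmin, a copper oxidase, was at 6.01 and 6.28 CPM in islets and 7025 CPM in hepatocytes. Trf, transferrin, was at 35.3 and 20.5 CPM in islets and 10778 CPM in hepatocytes. These proteins carry heme, copper and iron in plasma. Alb, the main plasma protein, was at 183 and 99.5 CPM in islets and 8417 CPM in hepatocytes (59.7-fold). The exception was Ttr, transthyretin, a thyroxine carrier that alpha cells also make, at 1410 and 1540 CPM in islets and 172 CPM in hepatocytes (8.58-fold higher in islets). Apoa2 and Serpina3k were called with hepatocytes CON1 but not with the check column CON2 or with the median set to 0, which leaves 20 calls in each case.

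Complement and clotting genes gave 22 of 23 compared members called higher in hepatocytes, with a median of -5.67. C3, the central complement protein, was at 27.3 and 16.4 CPM in islets and 11169 CPM in hepatocytes (512-fold). Fgb, a fibrinogen chain, was at 12.54 and 11.8 CPM in islets and 3287 CPM in hepatocytes (270-fold). The 1 member not called was C8b, at 25.4 and 24.2 CPM in islets and 69.9 CPM in hepatocytes. Of 11 acute phase genes, the proteins that liver makes in inflammation, 10 were called higher in hepatocytes, with a median of -8.70. Saa1 was at 0.126 and 0.129 CPM in islets and 1096 CPM in hepatocytes. Saa2, Saa3 and Orm2 were listed at 0 in islets, and stood at 416, 574 and 415 CPM in hepatocytes. These serum amyloid and orosomucoid genes were near or at 0 in both islet libraries. Hp, haptoglobin, was at 10.00 and 6.85 CPM in islets and 7504 CPM in hepatocytes. Lcn2, an iron-scavenging lipocalin, was at 5.503 and 5.802 CPM in islets and 2768 CPM in hepatocytes. Saa1 stood at 528 CPM in the check column CON2. Acute phase genes filled 7 of the 15 largest hepatocyte differences: Saa1, Hp, Saa3, Saa2, Orm2, Lcn2 and Orm1.

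Other liver functions were less complete. Of 20 compared cytochrome P450 and conjugation genes, 13 were called higher in hepatocytes and 1 in islets, with a median of -3.51. Aldh1a1, which makes retinoic acid, was at 5.65 and 4.32 CPM in islets and 1827 CPM in hepatocytes (367-fold). The bilirubin-conjugating Ugt1a1 was at 15.9 and 13.9 CPM in islets and 236 CPM in hepatocytes. Cyp2e1, a major P450 of the adult liver, was at 28.2 and 10.8 CPM in islets and 25.6 CPM in hepatocytes, so that the hepatocyte value lay between the islet libraries, and it was not called. Cyp4a14, a fatty acid hydroxylase, was at 33.3 and 12.2 CPM in islets and 0.76 CPM in hepatocytes and was the 1 islet call. In the urea cycle and amino acid list 9 of 20 compared genes were called higher in hepatocytes, and 5 with the median set to 0. Cps1, the first enzyme of the urea cycle, was at 10.2 and 6.48 CPM in islets and 53.4 CPM in hepatocytes, and is among the calls lost on that scale. Arg1, the last enzyme of the cycle, stood the other way round, at 18.9 and 16.98 CPM in islets and 4.94 CPM in hepatocytes (3.63-fold higher in islets). It was not called, but met the rule with the median set to 0. Tdo2, which starts tryptophan breakdown, was at 7.83 and 6.52 CPM in islets and 189 CPM in hepatocytes (26.3-fold). Of 13 bile acid genes listed, 6 did not reach the filter in either tissue. Of the 7 compared, 6 were called higher in hepatocytes, or 4 with the median set to 0. They were led by the canalicular exporter Abcc2, at 2.92 and 3.21 CPM in islets and 625 CPM in hepatocytes. Zonation lists were sparse: 2 of 5 pericentral and 3 of 8 periportal genes compared were called higher in hepatocytes.

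Genes of the cytoskeleton and of cell spreading were high in the hepatocyte library. Of 14 compared genes in a list of culture and fetal liver genes, 12 were called higher in hepatocytes, with a median of -3.69. Krt18, an epithelial keratin, was at 157 and 193 CPM in islets and 3516 CPM in hepatocytes. Vim, vimentin, was at 117 and 98.5 CPM in islets and 910 CPM in hepatocytes. Anxa2, a membrane-binding annexin, was at 23.9 and 27.4 CPM in islets and 840 CPM in hepatocytes. These 3 genes stood far above both islet libraries. Afp, alpha-fetoprotein of the fetal liver, was listed at 0 in islets and was at 21.6 CPM in hepatocytes. Scaled by length, Clu, clusterin, was the most abundant hepatocyte transcript, with Alb in the seventh place. The hepatocyte label was thus borne out by plasma proteins, while Arg1, Cyp2e1, Slc2a2 and G6pc, all prominent in adult liver, were below 26 CPM. The part of the time in culture was not tested.

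The enzymes of glucose handling differed in isozyme. Shares within an enzyme family are given below from length-scaled levels, because a share within 1 library needs no scaling between tables. Slc2a2 made 92.3% and 94.99% of the sum of Slc2a1 and Slc2a2 in islets, against 11.2% in hepatocytes. In CPM, Slc2a2 was at 395 and 487 in islets and 7.58 in hepatocytes (58.2-fold higher in islets). The transporter taught as shared was therefore low in these hepatocytes. In the column named FSK2, Slc2a2 was at 6.88 CPM.

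The end of glycolysis differed as clearly. Pkm, the muscle-type pyruvate kinase, made 98.6% and 98.0% of the pyruvate kinase level in islets, against 36.4% in hepatocytes, where Pklr, the liver form, made 63.6%. Pklr was at 15.2 and 16.6 CPM in islets and 423 CPM in hepatocytes (26.6-fold higher in hepatocytes). Ldha, lactate dehydrogenase A, was at 22.9 and 18.79 CPM in islets and 649 CPM in hepatocytes (31.1-fold), and made 52.8% and 50.7% of the Ldha and Ldhb level in islets, against 99.6% in hepatocytes. Ldhb was at 16.5 and 14.7 CPM in islets and 2.14 CPM in hepatocytes (7.28-fold higher in islets). Slc16a1, the lactate and pyruvate transporter MCT1, was at 2.16 and 2.43 CPM in islets and 114 CPM in hepatocytes (49.7-fold). Eno2, the neuronal enolase, was at 74.8 and 66.4 CPM in islets and 0.156 CPM in hepatocytes. Eno1, the common enolase, was at 79.3 and 65.6 CPM in islets and 267 CPM in hepatocytes, and was not called.

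Glucose release showed a change of isozyme as well. G6pc2, the islet glucose-6-phosphatase subunit, was at 1940 and 1679 CPM in islets and listed at 0 in hepatocytes, and made 97.6% and 97.0% of the family in islets. G6pc, the liver form, was at 3.69 and 3.89 CPM in islets and only 15.9 CPM in hepatocytes, and was not called, so that the widely expressed G6pc3 made 53.4% of the family in hepatocytes. The glucose-6-phosphate transporter Slc37a4 was at 83.7 and 69.4 CPM in islets and 12.9 CPM in hepatocytes (5.94-fold higher in islets). Pck1, the cytosolic carboxykinase of gluconeogenesis, was at 16.6 and 9.49 CPM in islets and 73.7 CPM in hepatocytes. That call was lost in 7 of 16 alternative settings, among them the column named FSK2 and the median set to 0. Its mitochondrial counterpart Pck2 was at 203 and 174 CPM in islets and 59.1 CPM in hepatocytes (3.19-fold higher in islets, not called). Pcx, pyruvate carboxylase, was alike, at 138 and 128 CPM in islets and 157 CPM in hepatocytes. The carboxylase thus did not separate the tissues. Pygl, the liver glycogen phosphorylase, was at 6.69 and 5.77 CPM in islets and 201 CPM in hepatocytes (32.2-fold). Khk, which takes up fructose carbon, was at 12.9 and 11 CPM in islets and 59.6 CPM in hepatocytes. The call of Pygl was kept in all 16 alternative settings, while that of Khk was lost in 8, among them both hepatocyte columns CON2 and FSK2. Gys1, the muscle glycogen synthase, and Pygb, the brain phosphorylase, were not called.

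The whole isozyme list had a median of -0.39, or 0.38 with the median transcript set to 0. Of 33 compared genes 4 were called higher in islets and 9 in hepatocytes, against 10.3% and 19.2% of all compared transcripts. With the median of all transcripts set to 0 these became 10 and 4: Hk2, Pck1, Khk and Cpt1a were among those that lost the hepatocyte call, and Pkm, Pck2, G6pc3, Gpd2, Aldoc and Cpt1c gained the islet call. Gpd2, the mitochondrial glycerol phosphate dehydrogenase, was at 142 and 157 CPM in islets and 43.7 CPM in hepatocytes. Gpd1, the cytosolic one, was at 57.2 and 53.2 CPM in islets and 153 CPM in hepatocytes. The mitochondrial and the cytosolic enzyme thus leaned opposite ways. Aldoc was at 22.0 and 21.0 CPM in islets and 6.63 CPM in hepatocytes. Gpi1 was at 244 and 218 CPM in islets and 288 CPM in hepatocytes. Aldoa, matched by symbol, was at 1070 and 780 CPM in islets and 379 CPM in hepatocytes. Aldoa and Aldoc thus leaned towards islets, while Gpi1 was nearly level. Pfkl was at 41.0 and 38.1 CPM in islets and 80.1 CPM in hepatocytes. Pfkm was at 66.9 and 64.7 CPM in islets and 28.04 CPM in hepatocytes. Pfkp was at 30.6 and 32.1 CPM in islets and 14.1 CPM in hepatocytes. These 3 phosphofructokinase genes thus shifted in share, Pfkl making 26.4% and 25.2% in islets and 61.9% in hepatocytes. Slc2a1 was at 32.8 and 25.7 CPM in islets and 60.0 CPM in hepatocytes. Hk1 was at 13.7 and 12.3 CPM in islets and 6.78 CPM in hepatocytes. Hk2 was at 3.41 and 3.84 CPM in islets and 25.6 CPM in hepatocytes. All 3 of these were low to moderate in both tissues. Gls2, the liver glutaminase, was at 5.46 and 6.24 CPM in islets and 24.1 CPM in hepatocytes, and Gys1, Pygb and Ldhd lay within 2.15-fold. Cpt1a, the gate of mitochondrial fat oxidation, was at 67.6 and 68.5 CPM in islets and 279 CPM in hepatocytes. Its brain form Cpt1c was at 14.3 and 13.4 CPM in islets and 4.47 CPM in hepatocytes.

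**Figure D4:**
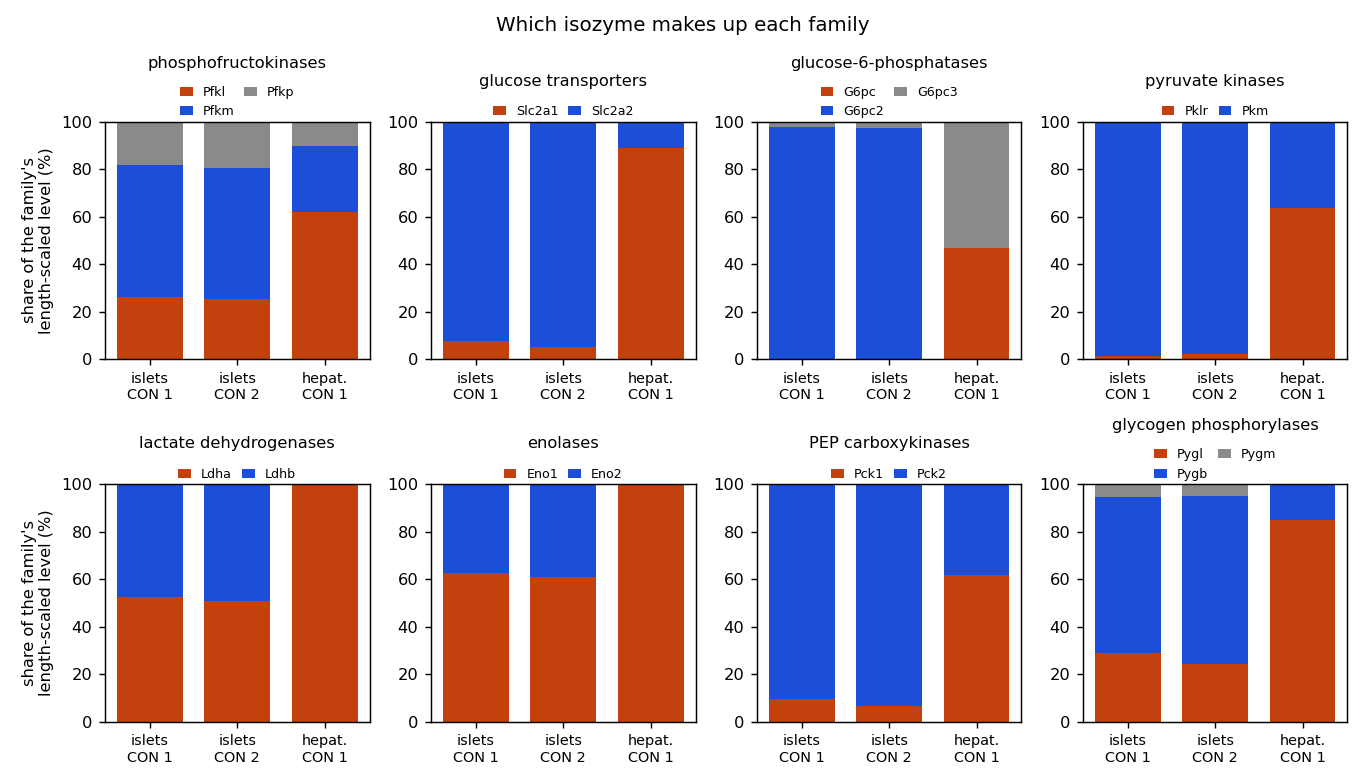
Bars give, for islets CON 1, islets CON 2 and hepatocytes CON 1, the share of each isozyme in the length-scaled level of its family, in percent. Slc2a2, G6pc2, Pck2 and Pkm fill most of the islet bars, and Slc2a1, Pklr, Ldha and Pygl most of the hepatocyte bars; G6pc2 is absent from the hepatocyte bar.

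The tables carry 1 transcript for each gene, and for 1184 of 24537 genes the islet and hepatocyte tables carry different ones. The sources used here do not say how it was chosen. Among 397 such genes at 10 CPM or more in both tissues, 101 had start sites more than 1000 bases apart, the islet one upstream in 55 and the hepatocyte one in 46. Hnf4a, a nuclear receptor that directs liver and beta cell genes, was among them. Its islet transcript starts at position 163506857 of chromosome 2 (mm10, plus strand) and its hepatocyte transcript at 163547155, 40298 bases downstream, with levels of 49.96 and 50.2 CPM in islets and 377 CPM in hepatocytes. The gene is known to have an upstream promoter used outside the liver and a downstream promoter used in liver, and the 2 transcripts begin with different coding exons. The start of the coding sequence is printed for both, with the bases of its own first exon in capitals and the first 24 shared bases in lower case. The annotated transcripts (GENCODE M21) were chosen for their starts, which lie 49 and 32 bases from the deposited ones in the order shown.
Hnf4a, islet form, first coding exon chr2:163506939-163506987: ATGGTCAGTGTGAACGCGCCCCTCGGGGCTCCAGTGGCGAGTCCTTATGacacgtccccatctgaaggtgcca
Hnf4a, hepatocyte form, first coding exon chr2:163547332-163547419: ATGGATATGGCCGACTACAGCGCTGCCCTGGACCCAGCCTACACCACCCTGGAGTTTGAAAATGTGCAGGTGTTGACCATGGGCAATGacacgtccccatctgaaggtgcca

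The islet form of Hnf4a thus has 49 coding bases of its own and the hepatocyte form 88. Counts by exon were not analysed here, so the share of each form within a tissue was not measured. Matched by symbol, the longest distances belonged to Celf2, an RNA-binding splicing regulator, with starts 524163 bases apart, at 30.9 and 35.8 CPM in islets and 12.1 CPM in hepatocytes, and to Rabgap1l, with 441367 bases. These were chosen after their values were seen. Rapgef4, the cAMP-activated exchange factor EPAC2, had its islet start 73402 bases upstream, at 115 and 128 CPM in islets and 47.0 CPM in hepatocytes.

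The liver transcription factors split into shared and liver-leaning ones. Foxa2, matched by symbol, was at 66.0 and 57.8 CPM in islets and 46.0 CPM in hepatocytes. Prox1, a homeobox factor of liver and islet progenitors, was at 65.4 and 65.3 CPM in islets and 44.9 CPM in hepatocytes. On the scale with the median set to 0 these were 1.18 and 1.29 log2 units higher in islets, still short of the call. In all, 8 of 14 compared factors were called higher in hepatocytes and 0 in islets, with a median of -2.80. Foxa1 was at 1.23 and 1.22 CPM in islets and 40.4 CPM in hepatocytes (33.1-fold). Nr5a2, a nuclear receptor of bile acid synthesis, was at 2.57 and 3.01 CPM in islets and 58.6 CPM in hepatocytes. Nr1i2, the pregnane X receptor, was at 1.87 and 1.98 CPM in islets and 56.2 CPM in hepatocytes. These last 3 were at 3.01 CPM or below in islets. Cebpa, matched by symbol, a factor of hepatocyte metabolism, was at 3.92 and 3.19 CPM in islets and 110 CPM in hepatocytes.

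Lipid synthesis genes went both ways. Acly, which makes cytosolic acetyl-CoA, was at 2872 and 3127 CPM in islets and 209 CPM in hepatocytes (14.4-fold higher in islets). Fasn, fatty acid synthase, was at 323 and 325 CPM in islets and 76.4 CPM in hepatocytes. Mlxipl, the glucose-responsive factor ChREBP, was at 404 and 490 CPM in islets and 71.3 CPM in hepatocytes. Fasn lies at the 4-fold limit (4.24-fold) and was not called with the check column. In contrast, Scd1, which desaturates fatty acids, was at 20.04 and 26.3 CPM in islets and 649 CPM in hepatocytes (28.1-fold). Gpam, which starts glycerolipid synthesis, was at 17.6 and 17.5 CPM in islets and 181 CPM in hepatocytes. Dgat2, which completes triglyceride, was at 8.31 and 8.62 CPM in islets and 269 CPM in hepatocytes (31.8-fold). In all, 3 of 11 lipogenic genes were called higher in islets and 5 in hepatocytes. Acaca, which makes malonyl-CoA for this pathway, was alike at 19.6 and 20.6 CPM in islets and 20.6 CPM in hepatocytes. Of 14 cholesterol synthesis genes 13 were not called, with a median of 0.27. Of 12 fatty acid oxidation and ketone genes, 3 were called higher in hepatocytes, against 19.2% of all compared transcripts. With the median set to 0 it was 1 of 12, against 1025 of 9904. That gene was Acadm, the medium-chain dehydrogenase, at 12.7 and 13.2 CPM in islets and 200 CPM in hepatocytes (15.47-fold).

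A list of genes known from other work to be kept low in beta cells was lower in islets as a whole. Of 20 compared, 18 were called higher in hepatocytes and 0 in islets, with a median of -4.34. Such lists were drawn up by comparing islets with other tissues, liver included, so the direction is not independent evidence. Besides Ldha and Slc16a1, Cat, catalase, was at 17.9 and 16.2 CPM in islets and 1536 CPM in hepatocytes (90.2-fold). Mgst1, a microsomal glutathione transferase, was at 10.0 and 6.67 CPM in islets and 1099 CPM in hepatocytes (132-fold). Yap1, the Hippo coactivator, was at 2.87 and 2.92 CPM in islets and 178 CPM in hepatocytes (61.6-fold). All 3 were far lower in both islet libraries. Rest, the repressor of neuronal genes, was at 2.14 and 2.66 CPM in islets and 24.8 CPM in hepatocytes. The 2 members not called were Oat and Cxcl12. Oat, ornithine aminotransferase, was at 12.48 and 12.1 CPM in islets and 46.4 CPM in hepatocytes. Cxcl12, a chemokine, was at 7.03 and 7.71 CPM in islets and 21.4 CPM in hepatocytes.

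The cAMP pathway differed at the receptors and less downstream. Of 18 members of a receptor list, drawn up for stimulatory or inhibitory G proteins, 8 did not reach the filter in either tissue. Of the 10 compared, 7 were called higher in islets and 1 in hepatocytes, with a median of 5.82. The 1 hepatocyte call was Adra1b, an alpha-1 receptor that belongs to neither class. Glp1r, the incretin receptor of beta cells, was at 412 and 485 CPM in islets, and Gipr, the other incretin receptor, at 81.5 and 74.9 CPM, and both were listed at 0 in hepatocytes. The inhibitory receptors Sstr3 (for somatostatin) and Galr1 (for galanin) were at 182 and 170 CPM and at 51.0 and 53.8 CPM in islets and listed at 0 in hepatocytes. Adra2a, the inhibitory adrenergic receptor, was at 101 and 89.0 CPM in islets and 0.439 CPM in hepatocytes. Vipr1, a receptor of vasoactive intestinal peptide, was at 121 and 103 CPM in islets and 0.888 CPM in hepatocytes. Gcgr, the glucagon receptor, was shared, at 35.9 and 30.5 CPM in islets and 34.1 CPM in hepatocytes. Adra1b, an adrenergic receptor of liver, was at 0.41 and 0.433 CPM in islets and 11.34 CPM in hepatocytes, a call lost with either other hepatocyte column.

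Among G proteins, Gnas, the stimulatory alpha subunit, was at 1447 and 1268 CPM in islets and 718 CPM in hepatocytes and was not called. Gnao1, an inhibitory alpha subunit of neurons, was at 723 and 699 CPM in islets and 0.106 CPM in hepatocytes, and made 37.6% and 36.1% of the inhibitory alpha subunit level in islets, against 0.0085% in hepatocytes. Gnaz, another of the class, was at 79.6 and 64.6 CPM in islets and 0.433 CPM in hepatocytes, while Gnai2 was alike at 305 and 340 CPM in islets and 270 CPM in hepatocytes. Adcy6 was the main adenylyl cyclase in both, with 60.6% and 55.2% of the 9 cyclase transcripts in islets and 63.9% in hepatocytes, and Adcy9 followed with 26.0% and 30.8% in islets and 25.5% in hepatocytes. Adcy8, a calcium-activated cyclase matched by symbol, made 2.00% and 2.04% in islets and was listed at 0 in hepatocytes.

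Prkar1a was the main regulatory subunit of protein kinase A in both tissues, with 72.6% and 66.5% of the length-scaled level of the 4 genes in islets and 81.5% in hepatocytes, while 2 others were called higher in islets. Prkar1b, the neuronal type I subunit, was at 120 and 130 CPM in islets and listed at 0 in hepatocytes, and Prkar2b was at 13.1 and 14.6 CPM in islets and 0.248 CPM in hepatocytes. Prkar1a was alike at 512 and 434 CPM in islets and 357 CPM in hepatocytes, and Prkar2a was at 30 and 44.1 CPM in islets and 96.3 CPM in hepatocytes. Of the catalytic subunits, Prkacb made 75.1% and 75.3% in islets and 37.9% in hepatocytes, and Prkaca the remainder. With the median set to 0, Adcy6, Adcy9 and Prkacb met the rule in islets, while Akap1 lost it in hepatocytes. Akap1, which anchors the kinase to mitochondria, was at 20.3 and 18.6 CPM in islets and 107 CPM in hepatocytes (5.51-fold). Of 8 compared phosphodiesterases 1 was called higher in islets, against 10.3% of all compared transcripts. It was Pde5a, which degrades cGMP, at 68.7 and 79.3 CPM in islets and 4.86 CPM in hepatocytes (15.2-fold). The list's median was -0.19, or 0.57 with the median transcript set to 0. Pde3b, the insulin-activated form, was at 75.4 and 72.3 CPM in islets and 83.9 CPM in hepatocytes.

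CREB and most of its cofactors differed by less than 4-fold. Of 14 compared members 13 were not called, beside 6983 of all 9904 transcripts. The list's median was 0.46, or 1.22 relative to all transcripts. With the median set to 0, 12 of the 14 lay above 0 and 4 were called higher in islets. Creb1 was at 26.2 and 27.0 CPM in islets and 43.7 CPM in hepatocytes. Its relative Atf1 was at 28.2 and 25.5 CPM in islets and 39.1 CPM in hepatocytes. Crem, another relative, matched by symbol, was at 35.8 and 39.4 CPM in islets and 37.7 CPM in hepatocytes. The CREB family thus lay within 2-fold in all 3 libraries. Crtc2, the coactivator that moves to the nucleus on a cAMP signal, was at 38.0 and 41.2 CPM in islets and 37.0 CPM in hepatocytes. Crtc3 was at 35.4 and 43.9 CPM in islets and 28.7 CPM in hepatocytes. Crtc1 was the exception, at 76.8 and 75.1 CPM in islets and 13.5 CPM in hepatocytes (5.62-fold), and made 38.7% and 35.3% of the family in islets and 10.8% in hepatocytes. The acetyltransferases Crebbp and Ep300 were at 172 and 190 CPM and at 154 and 153 CPM in islets, against 45.6 and 53.4 CPM in hepatocytes, and both met the rule with the median set to 0.

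The kinases that hold the coactivators in the cytoplasm, and the class II deacetylases, differed by less than 4-fold. Sik3 met the rule in islets with the median set to 0, and Sik1 met it in hepatocytes with the check column CON2. Sik1, itself a cAMP target, was at 26.7 and 24.4 CPM in islets and 85.3 CPM in hepatocytes. Sik2 was at 38.3 and 44.9 CPM in islets and 17.7 CPM in hepatocytes. Sik3 was at 158 and 163 CPM in islets and 65.5 CPM in hepatocytes. Sik1 thus leaned towards hepatocytes and its relatives towards islets. Hdac4, a class II deacetylase, was at 43.4 and 40.0 CPM in islets and 33.8 CPM in hepatocytes. Hdac5 was at 122 and 108 CPM in islets and 79.3 CPM in hepatocytes. Hdac7 was at 37.0 and 30.8 CPM in islets and 24.1 CPM in hepatocytes. The 3 deacetylases were each somewhat higher in islets. Of their partners, Mef2a was at 31.0 and 36.1 CPM in islets and 93.8 CPM in hepatocytes. Mef2d, matched by symbol, was at 205 and 197 CPM in islets and 92.3 CPM in hepatocytes. Mef2c, also by symbol, was at 8.99 and 7.94 CPM in islets and 2.46 CPM in hepatocytes. At baseline 15 of 17 compared cAMP and immediate-early targets were not called, and the list's median was -0.62, or 0.14 with the median transcript set to 0. Per1, a clock gene, was at 91.9 and 91.1 CPM in islets and 12.2 CPM in hepatocytes (7.53-fold higher in islets). Nfil3, a repressor of clock outputs, was at 17.29 and 16.8 CPM in islets and 72.6 CPM in hepatocytes, a call lost with the median set to 0 and with the column named FSK2. Nr4a1, an orphan nuclear receptor, was alike at 23.5 and 19.8 CPM in islets and 21.3 CPM in hepatocytes, and stood at 82.3 CPM in the check column. With that column 5 targets were called higher in hepatocytes: Nfil3, Nr4a3, Fosl2, Dusp1 and Atf3. Fosl2, an AP-1 subunit, was at 44.0 and 42.5 CPM in islets and 92.2 CPM in hepatocytes CON1, but at 228 CPM in the check column.

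**Figure D5:**
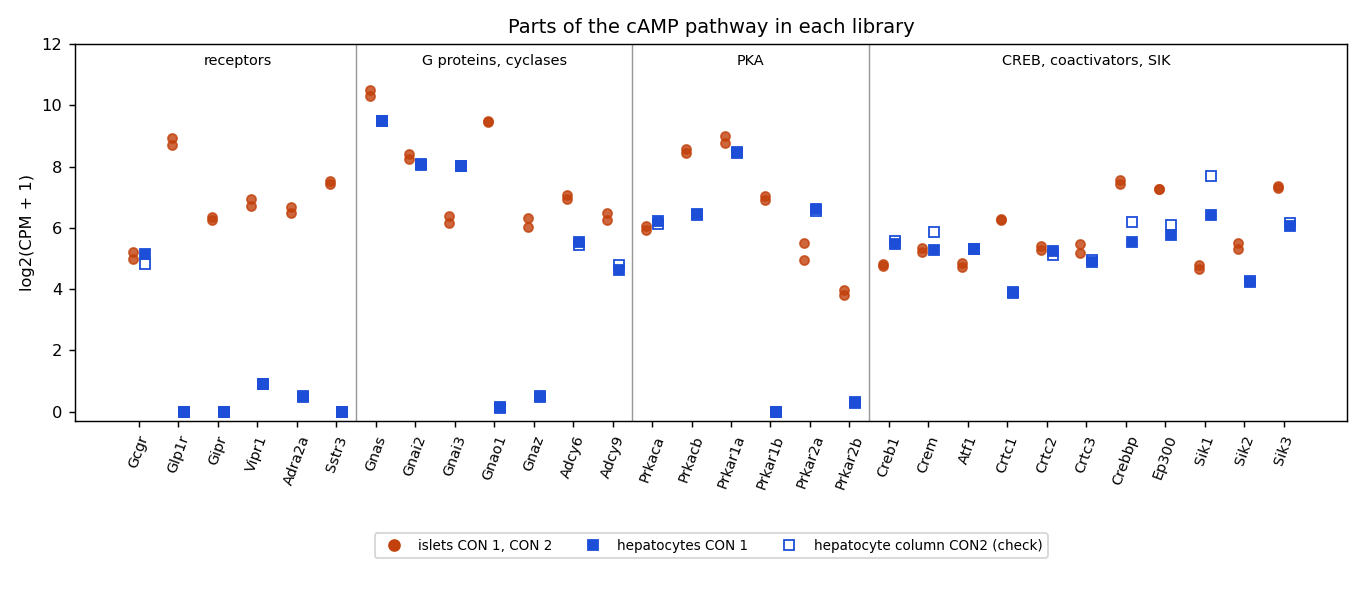
Levels as log2(CPM + 1) of 30 cAMP pathway genes in islets CON 1 and CON 2 (orange circles) and, to their right, hepatocytes CON 1 (filled blue squares) with the check column CON2 (open squares). Receptors other than Gcgr, and Gnao1, Gnaz, Prkar1b and Prkar2b, sit near 0 in hepatocytes, while Creb1, Crem, Atf1, Crtc2 and Crtc3 lie close together; Sik1 and Crem are higher in the check column.

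Called growth factor receptors lay on both sides. Igf1r, the receptor of insulin-like growth factor, was at 540 and 540 CPM in islets and 3.44 CPM in hepatocytes (157-fold higher in islets). Prlr, the prolactin receptor, was at 355 and 362 CPM in islets and 2.44 CPM in hepatocytes (147-fold). Insr, the insulin receptor, was at 72.4 and 83.9 CPM in islets and 134 CPM in hepatocytes. Ghr, the growth hormone receptor, was at 120 and 148 CPM in islets and 117 CPM in hepatocytes. The insulin and growth hormone receptors were thus shared. Egfr, the receptor of epidermal growth factor, was at 33.4 and 37.7 CPM in islets and 272 CPM in hepatocytes (7.66-fold higher in hepatocytes). Met, the hepatocyte growth factor receptor, was at 22.2 and 27.0 CPM in islets and 228 CPM in hepatocytes. Fgfr4, which receives the gut signal that limits bile acid synthesis, was at 3.57 and 3.56 CPM in islets and 48.8 CPM in hepatocytes. In the list as a whole 2 of 16 compared genes were called higher in islets and 5 in hepatocytes. Over all compared transcripts the shares were 10.3% and 19.2%. The list's median was -0.54, or 0.22 with the median transcript set to 0. Of 17 protein folding genes, 16 were not called. Their median was 0.14, or 0.90 relative to all transcripts, with 10 of the 17 above 0 in islets, or 13 with the median set to 0. Hspa5, the main chaperone of the endoplasmic reticulum, was at 1481 and 1374 CPM in islets and 1751 CPM in hepatocytes. Ern1, the stress sensor IRE1, was the exception at 243 and 269 CPM in islets and 39.4 CPM in hepatocytes (6.51-fold higher in islets), while its target Xbp1 was at 168 and 192 CPM in islets and 214 CPM in hepatocytes. Among 12 compared housekeeping genes the median was -1.44, or -0.68 relative to all transcripts, with Tbp at 16.4 and 14.7 CPM in islets and 18.6 CPM in hepatocytes. Gapdh stood at only 9.49 and 10.0 CPM in islets and 4.17 CPM in hepatocytes, and did not reach the filter. Whether so low a value reflects its expression or the handling of reads with several matches was not tested.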

How the data were processed

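Per the submitters' processing notes, TopHat2 2.0.9, STAR, HOMER and DESeq2 were used with mm10; the sources used here do not say which aligner served which table. Per the file headers, HOMER counted sense reads over exons, condensed genes to 1 transcript with its length, and compared groups within each tissue's own table of 4 columns. The columns hold log2 values, taken here as regularised log2 because values below 0 occur and an exact 0 fills all columns of a row or none. In these log2 values deposited by the authors an exact 0 in all 4 columns (7484 islet and 9045 hepatocyte rows) was read as no reads and set to 0; the others were raised from log2 and scaled to CPM, the same total in every library. The deposited fold changes and p-values of the same tables were not used here, nor were the other tables of the series. RNA was made into strand-specific libraries, per the labels. Transcripts were matched by id (23353 shared); where a gene's transcript differed the text says that it was matched by symbol and such genes are in no count.

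Differences are islet minus hepatocyte in log2(CPM + 1), with a pseudocount of 1, averaged over the 2 islet libraries, for transcripts with at least 10 CPM in the higher tissue. A transcript was called where both islet libraries lay at least 4-fold from hepatocytes CON1. No test or interval was computed. Folds divide the islet mean by the hepatocyte value, or the reverse, and are given only where both exceed 3 reads. Length-scaled levels divide by the deposited transcript length. Replicate libraries are separate samples in the labels; nothing says whether they came from separate mice, so their spread may be technical. Named genes were the 15 largest called differences each way at 100 CPM or more, up to 6 called and 3 uncalled members per list, all isozymes and CREB cofactors that reached the filter, and 20 fixed genes, of which some are not reported here; Rn45s, Lars2 and the other genes described were chosen after their values were seen. The comparison, the 30 lists and the 13 marker lists were chosen with earlier results of these data known. The calling rule was tried on simulated counts in which both arms were drawn from the islet CON 1 profile. Those counts were neither regularised nor normalised in separate tables, so they do not check the calls made here. A planned motif search in promoters was not run, as the promoter sequences at hand were not of the mouse. Calculations used Python 3.11 with numpy and pandas.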

Additional observations from a re-analysis of the deposited data

Results flagged for a closer look

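Hepatocyte markers summed to 3117 CPM in isletWT_FSK 1, a forskolin-treated islet library outside the comparison, against 471 and 315 CPM in the control islets and 344 CPM in isletWT_FSK 2. It was noted because liver transcripts appear in an islet library above the level of the controls.

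Pck1 stood at 374 CPM in the hepatocyte column named CON2, against 73.7 CPM in CON1, 375 CPM in FSK1 and 64.8 CPM in FSK2. It was noted because a control column carried the level of a forskolin library.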

How the results depend on the processing

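No called value of a named gene changed sign in any of 16 alternative settings, and no transcript called in the main comparison was called the other way with hepatocyte CON2, with FSK2 or in the forskolin libraries. Most of these settings could hardly have turned a call. A call needs 2 log2 units, while the median difference was -0.76. The largest absolute log2 difference was 2.33 between hepatocyte CON1 and CON2, and 1.82 between CON1 and FSK2. The kept signs are therefore no support for the calls. Counts depended on scale. Without the 50 most abundant transcripts in the totals, 1647 transcripts were called higher in islets and 1242 in hepatocytes. Quantile normalisation gave 1265 and 1182, the median set to 0 gave 1427 and 1025, and totals without Rn45s, an alternative chosen after seeing the data, gave 1151 and 1636. A filter of 50 CPM gave 483 and 1216, and an 8-fold rule 723 and 858. Without islet replicate 1 or 2 the counts were 1041 to 1050 in islets and 2009 to 2064 in hepatocytes. Of 255 named calls, 165 were made in every setting. The median set to 0 lost 25, all higher in hepatocytes, the only side on which this shift can lose a call. The medians of 32 of 40 lists kept their sign throughout. With the median set to 0, those of the isozyme list (0.38), insulin signalling (0.22), cAMP targets (0.14), phosphodiesterases (0.57) and stellate markers (0.44) became positive; sinusoidal endothelial markers did so without the 50 most abundant transcripts (0.27), and protein folding (-0.10) and macrophage markers (-2.30) became negative under the 50 CPM filter. The causes were not tested. In the forskolin libraries 855 of 1019 islet calls and 1624 of 1902 hepatocyte calls were kept. No paired analysis was possible because the tissues come from separate tables and no test was made. Depth limits low levels: 3 reads are about 1 CPM, covering counting error only.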

Other observations

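Several abundant rows are of uncertain origin. Rn45s, the ribosomal RNA precursor, was at 136920 and 147116 CPM in islets and 12729 CPM in hepatocytes CON1, but at 51850 and 45059 CPM in the hepatocyte columns CON2 and FSK2. Lars2, a mitochondrial leucyl-tRNA synthetase, moved with it across the same libraries, at 4854 and 5981 CPM in islets and 973 CPM in hepatocytes CON1, and at 2756 and 2342 CPM in CON2 and FSK2. Whether the 2 rows share reads was not tested.

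Ribosomal protein genes, a group added after seeing the data, were lower in islets. Of 64 compared, 26 were called higher in hepatocytes and 0 in islets, with a median log2 difference of -1.87, or -1.11 relative to all transcripts. Rpl13a was at 170 and 164 CPM in islets and 987 CPM in hepatocytes, and Rplp0 at 349 and 316 CPM in islets and 923 CPM in hepatocytes. Many of these genes have processed copies elsewhere in the genome, and the sources used here do not say how reads with several matches were treated in each table.

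Rian, a noncoding RNA of the same imprinted cluster as Meg3, was at 364 and 393 CPM in islets and 0.248 CPM in hepatocytes.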
